A study of Rattus norvegicus with 10 samples.

Results

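The genes described here mark the endothelium of the kidney, the cell layer that lines glomerular capillaries, arterioles, peritubular capillaries and veins. They were taken by name from a list of 40 endothelial genes, and 39 of the 40 names matched a row among the 32545 genes of the table. No row carries the name Pecam1, which is not analysed here. Left kidney cortex was the source of the RNA, taken from male Dahl salt-sensitive (SS) rats, an inbred strain prone to hypertension on salt, whose urine was collected at 11 to 12 weeks of age. The kidneys had been flushed with buffered saline through the circulation before they were frozen. Of the 10 libraries, 5 came from wild-type rats (SS_WT) and 5 from rats with the Kcnj16_m1 genotype, a mutation of a potassium channel subunit gene of the kidney tubule that the series title calls a knockout. Both groups share the SS background, and the labels name no treatment, diet or cell type restriction of the mutation.

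Endothelial cells survive and branch under vascular endothelial growth factor (VEGF), which in the kidney comes largely from podocytes and tubule cells, and are stabilised by angiopoietins acting on the Tie receptors. Arterial identity depends on Notch ligands, ephrin-B2 and SoxF transcription factors, while shear stress from blood flow acts through Krüppel-like factors. The endothelium of the kidney is divided into zones: glomerular capillaries are rich in Ehd3 and Kdr, arterial segments in Gja5 and Sox17, and the fenestrated peritubular capillaries in Plvap.

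Values are FPKM, fragments per kilobase of gene scaled to the depth of the library, so that levels of different genes can be set side by side. Whole reads recovered from them came to 16541364 to 16863579 per wild-type library and 16361516 to 23385968 per mutant library. Kcnj16 itself went from 347 ± 21.6 to 326 ± 13.3 FPKM between wild type and mutants (mean ± SD, n = 5 per group here and throughout), a difference that did not pass the test (limma adjusted p = 0.278). Its transcript level therefore cannot check the genotype labels. No label states whether each library is a different rat, and the p-values below speak only for the variation among these 10 libraries, some or all of which may be technical.

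Endothelial genes were more often higher than lower in the mutants. Of the 38 that were tested, 20 were higher, 2 lower and 16 did not pass (limma on log2(FPKM + 0.5), Benjamini-Hochberg adjusted p under 0.05 over all genes). Over all 13971 genes tested, 14.6% were called higher and 14.0% lower. The 38 genes had a median log2 fold change (mutant minus wild type) of 0.23, beside 0.0079 over all genes. The 5 mutant libraries all lay above the 5 wild-type libraries for 14 endothelial genes, where 9.88% of all genes did so, and all below for 1, Edn1, where 9.34% did so. The largest rise on this scale was a log2 fold change of 0.86 (Gja5) and the largest fall one of -0.76 (Edn1). Since whole cortex was sequenced, fewer or more endothelial cells cannot be told apart from less or more RNA per cell.

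**Figure D1:**
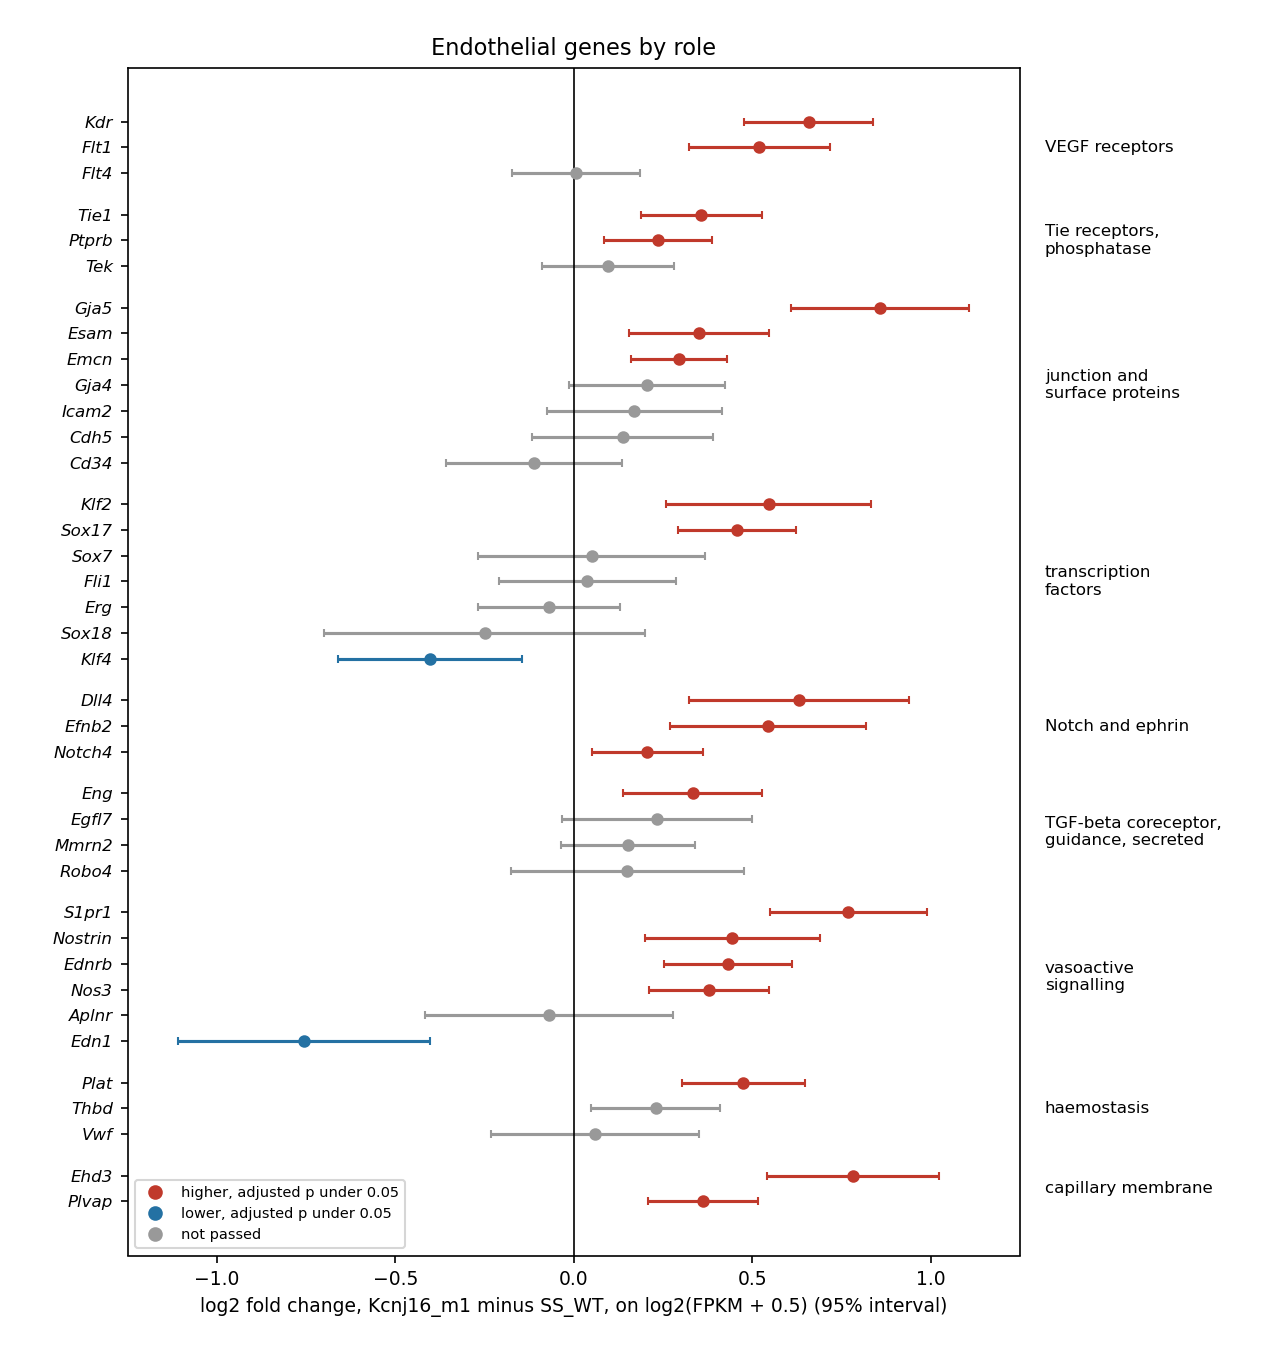
Log2 fold change of each of the 38 tested endothelial genes (mutant minus wild type on log2(FPKM + 0.5), x axis) with its 95% interval, grouped by role. The 20 red genes were higher, the 2 blue genes (Klf4 and Edn1) lower, and the 16 grey genes did not pass.

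Summed over the genes, the rise was seen in all mutant libraries, and the wild-type libraries differed more among themselves. Replicate numbers here are the order of the samples within each group, as the labels give none. The same number in both groups does not pair those libraries. From replicate 1 to 5, the summed level of the 38 genes was 335, 341, 366, 360.1 and 408 FPKM for wild type and 449.8, 466, 461, 472 and 462 FPKM for the mutants. The mutant sums were all above the wild-type sums. Wild-type replicate 5 held the highest wild-type value of 24 of the 38 genes and the lowest of 0, and wild-type replicate 1 held the lowest of 19. The median coefficient of variation was 13.4% in wild type and 8.51% in mutants, and it was larger in wild type for 29 of the 38 genes. Wild-type replicates 1 and 2 carry the lowest library numbers in the labels. Without both of them, 14 endothelial genes were higher and 2 lower. That fit has fewer libraries, which by itself can lower the number of calls. Of all 13971 genes tested, 2033 were higher and 1955 lower with all 10 libraries. Across the 19 alternative fits, of which this is 1, 1510 to 2374 were higher and 1534 to 2207 lower. The count over all genes for this fit alone is not given here, so a loss particular to endothelial genes was not tested.

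**Figure D2:**
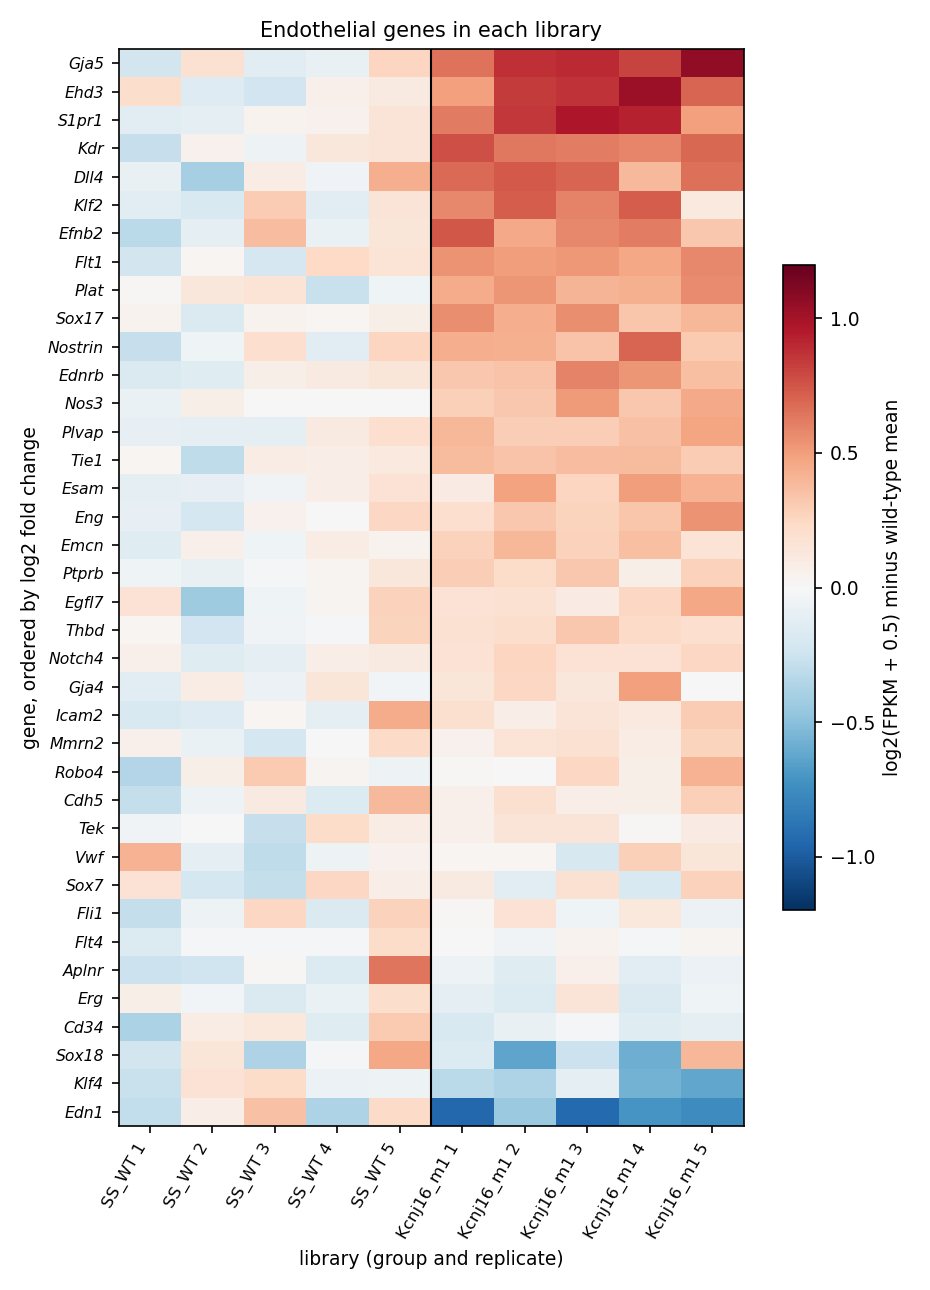
Difference of each library (columns) from the wild-type mean on log2(FPKM + 0.5) for the 38 tested endothelial genes (rows), ordered by log2 fold change. Red is above and blue below the wild-type mean. The mutant columns are red for most rows down to Emcn and blue in all 5 libraries for Klf4 and Edn1 at the bottom, and wild-type replicate 5 is the reddest wild-type column.

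Both glomerular markers rose. Ehd3 encodes a membrane-trafficking protein found mainly in glomerular endothelium in the kidney (chromosome 6, 25074955 to 25100977, plus strand, in coordinates of the deposited table; no source used here names its genome build). Listed from replicate 1 to 5, as all such values below, Ehd3 stood at 14.6, 11.2, 10.6, 13.1 and 13.5 FPKM in wild type and at 17.8, 22.7, 23.2, 25.9 and 20.6 FPKM in the mutants. Every mutant library was above every wild-type library. The log2 fold change of Ehd3 was 0.78 (SE 0.11, limma adjusted p = 0.000861). Kdr (chromosome 14, 34727623 to 34787183, plus strand) encodes the main signalling receptor for VEGF-A. Kdr stood at 8.33, 10.6, 9.75, 11.2 and 11.4 FPKM in wild type and at 17.8, 16.1, 15.8, 15.6 and 16.7 FPKM in the mutants. The groups did not overlap, and the lowest wild-type value was that of replicate 1. Kdr differed by a log2 fold change of 0.66 (SE 0.08, limma adjusted p = 0.000492).

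Both arterial markers rose as well. Gja5 (chromosome 2, 199162745 to 199184939, plus strand) encodes the gap junction protein connexin 40 of arterial endothelium. Gja5 stood at 1.48, 2.13, 1.62, 1.67 and 2.27 FPKM in wild type and at 3.13, 3.77, 3.81, 3.56 and 4.33 FPKM in the mutants. The mean ratio of mutant to wild type was 2.02, the highest of the listed genes, and the groups did not overlap. Its log2 fold change was 0.86 (SE 0.11, limma adjusted p = 0.000658). Sox17 (chromosome 5, 14890408 to 14895907, plus strand) encodes a transcription factor of arterial identity. Sox17 stood at 2.61, 2.18, 2.62, 2.57 and 2.66 FPKM in wild type and at 3.94, 3.60, 3.96, 3.31 and 3.49 FPKM in the mutants. Again no libraries overlapped, with wild-type replicate 2 the lowest. Sox17 differed by a log2 fold change of 0.46 (SE 0.08, limma adjusted p = 0.00191).

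The peritubular marker Plvap (chromosome 16, 19906318 to 19918689, minus strand) encodes the protein of the diaphragms that span capillary fenestrae. It had the highest mean level of the 39 genes. Plvap stood at 35.6, 35.4, 35.2, 41.1 and 43.7 FPKM in wild type and at 50.2, 46.9, 46.9, 48.7 and 53.0 FPKM in the mutants. The groups were apart, and wild-type replicates 4 and 5 lay nearest to the mutants. Plvap differed by a log2 fold change of 0.36 (SE 0.07, limma adjusted p = 0.00387).

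**Figure D3:**
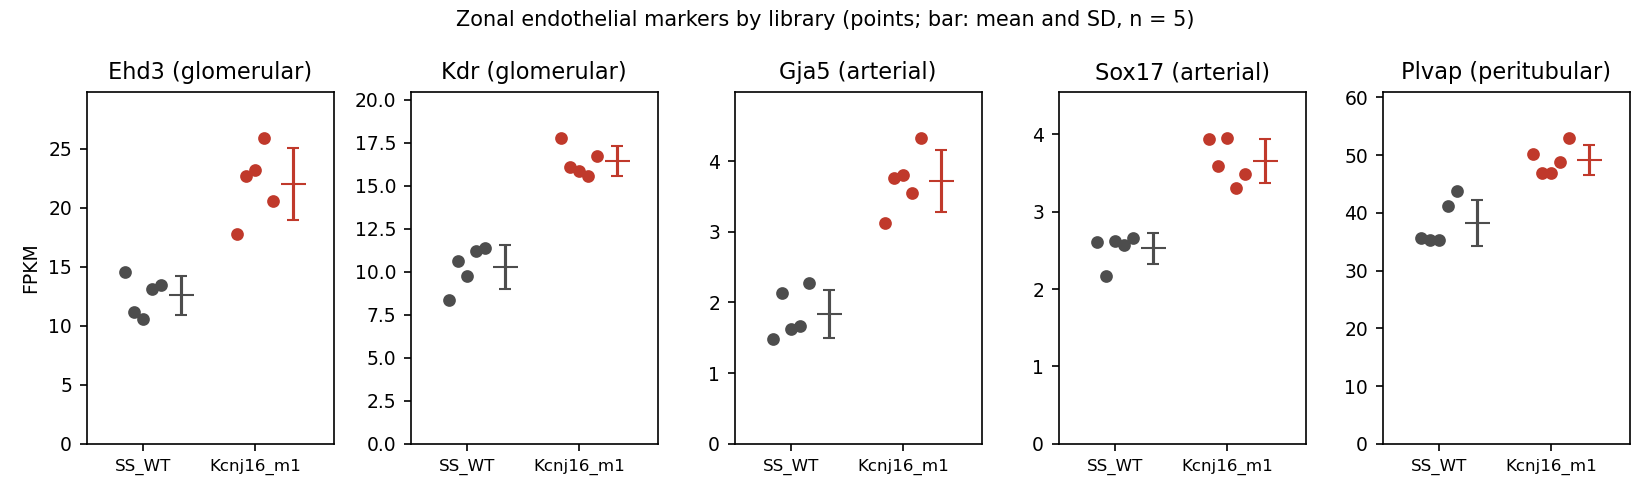
FPKM of the 5 zonal markers in each library (points), with the mean and SD of each group (bars, n = 5), each panel starting at 0. The lowest mutant library lies above the highest wild-type library in all 5 panels, for example 17.8 against 14.6 FPKM for Ehd3.

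The zonal markers were then compared with Cdh5, which encodes the adherens junction protein VE-cadherin of all endothelial cells. Cdh5 stood at 4.001, 4.76, 5.40, 4.40 and 6.66 FPKM in wild type and at 5.20, 5.77, 5.29, 5.23 and 6.17 FPKM in the mutants. The groups overlapped, with the highest value in wild-type replicate 5, and the log2 fold change of 0.14 did not pass (95% interval -0.12 to 0.39, limma adjusted p = 0.398). Per library, the log2 level of each gene minus that of Cdh5 was fitted across all genes, of which 11.4% were called. Relative to Cdh5, Gja5 was higher in the mutants by 0.72 (SE 0.14, limma adjusted p = 0.00253), Ehd3 by 0.65 (SE 0.17, limma adjusted p = 0.0220) and Kdr by 0.52 (SE 0.13, limma adjusted p = 0.0182). The Ehd3 call was lost without wild-type replicate 2 or 3 or mutant replicate 3 or 4, and the Kdr call without wild-type replicate 3 or mutant replicate 1. Sox17 and Plvap differed from Cdh5 by 0.32 (95% interval -0.003 to 0.64, limma adjusted p = 0.211) and 0.23 (95% interval -0.06 to 0.51, limma adjusted p = 0.334), which did not pass.

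**Figure D4:**
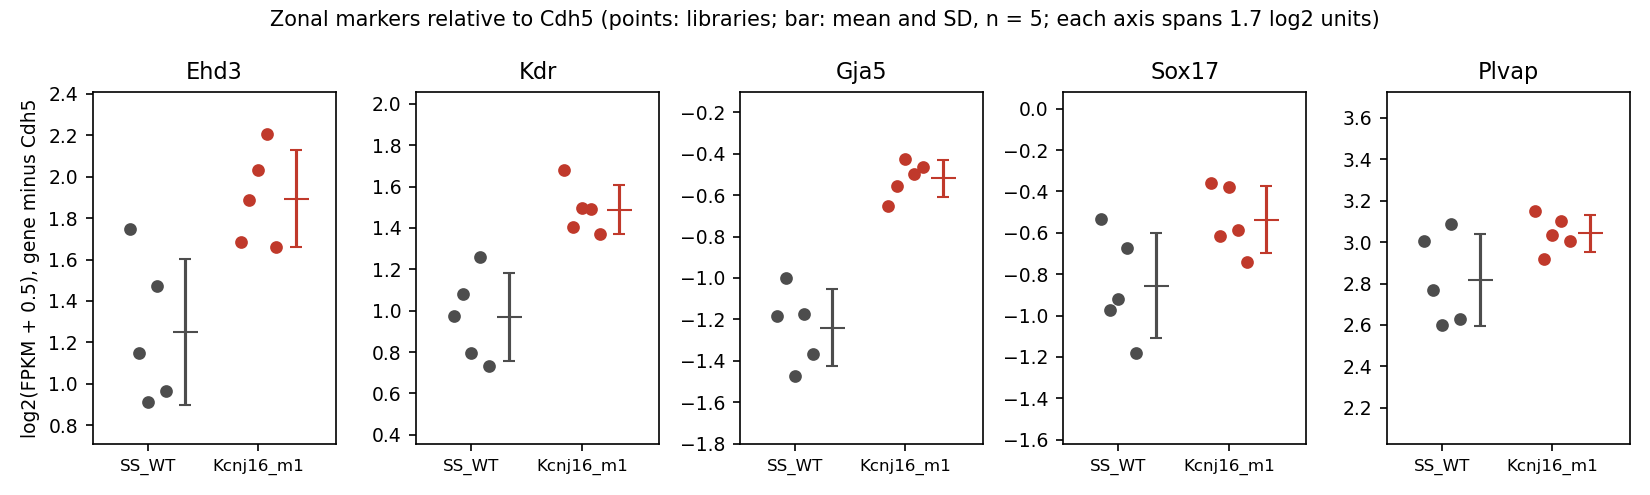
Log2(FPKM + 0.5) of each zonal marker minus that of Cdh5 in the same library (points), with the mean and SD of each group (bars, n = 5), each axis spanning 1.7 log2 units. For Kdr and Gja5 all mutant libraries lie above all wild-type libraries, for Gja5 at -0.65 to -0.43 against -1.48 to -0.999, whereas the groups overlap for Ehd3, Sox17 and Plvap.

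Set against Plvap in the same libraries, the glomerular markers and Gja5 were higher in the mutants, and Sox17 was not shown to differ. These ratios and the within-family ratios given below make 14 pairs, each tested with an exact two-sided permutation test over all assignments of the libraries to the groups, with 0.00794 the smallest p it can give. The pairs share libraries and genes. The log2 ratio of Kdr to Plvap was higher in the mutants by 0.29 (exact p = 0.00794, adjusted p over the 14 pairs = 0.0222), that of Ehd3 to Plvap by 0.42 (exact p = 0.0238, adjusted p = 0.0417) and that of Gja5 to Plvap by 0.50 (exact p = 0.0159, adjusted p = 0.0317). The ratio of Sox17 to Plvap differed by 0.09 (SE 0.09, exact p = 0.238, adjusted p = 0.256). In the fit across all genes, Ehd3, Kdr and Gja5 were also called higher relative to Plvap, where 61.3% of all genes were called, and relative to Tie1, where 57.7% were, so that a call against either gene is common.

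The RefSeq promoter table of rat assembly GRCr8 matched 23 of the 40 names. The 250 bases before the start of the gene are printed for 1 matched gene of each zone (Gja5, Kdr and Plvap) and for Edn1, the gene with the largest fall, so that genes that moved in different ways can be read side by side. Sequences run 5′ to 3′ along the gene, and capitals mark matches on either strand to 6 motifs given below.
Gja5, chr2:187290977-187291226, plus strand: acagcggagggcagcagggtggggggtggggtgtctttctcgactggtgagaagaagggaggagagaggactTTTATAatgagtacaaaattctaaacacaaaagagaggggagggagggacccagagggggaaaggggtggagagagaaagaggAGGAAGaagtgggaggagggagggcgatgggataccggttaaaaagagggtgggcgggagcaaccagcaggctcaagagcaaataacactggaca
Kdr, chr14:32571813-32572062, plus strand: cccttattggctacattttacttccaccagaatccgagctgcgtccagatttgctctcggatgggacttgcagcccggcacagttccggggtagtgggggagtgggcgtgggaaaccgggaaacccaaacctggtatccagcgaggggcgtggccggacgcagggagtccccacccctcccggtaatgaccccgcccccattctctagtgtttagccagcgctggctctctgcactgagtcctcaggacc
Plvap, chr16:18231280-18231529, minus strand: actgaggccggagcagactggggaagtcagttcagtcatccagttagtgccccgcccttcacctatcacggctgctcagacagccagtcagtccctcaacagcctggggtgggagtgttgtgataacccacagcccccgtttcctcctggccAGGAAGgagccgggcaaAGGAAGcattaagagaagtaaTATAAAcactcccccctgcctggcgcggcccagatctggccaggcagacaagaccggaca
Edn1, chr17:22666688-22666937, minus strand: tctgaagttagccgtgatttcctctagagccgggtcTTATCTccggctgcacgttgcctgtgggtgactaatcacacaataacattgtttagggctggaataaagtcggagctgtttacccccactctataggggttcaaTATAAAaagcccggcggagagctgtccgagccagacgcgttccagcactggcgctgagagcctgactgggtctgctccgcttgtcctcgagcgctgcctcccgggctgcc
The motifs searched were AGGAAG (the core bound by ETS factors), AACAGGAA (a joint FOX and ETS element of endothelial enhancers, which shares letters with the first), then ACAAAG for SOX factors, then GGGTGTG for Krüppel-like factors, then AGATAA for GATA-binding factors, and last TATAAA, the TATA box. The ETS letters occurred in 13 of the 23 endothelial windows (56.5%) and in 29.4% of the 27457 windows of all genes. The joint element was in 1 of the 23 windows, that of Emcn, against 2.09% of all windows, and the SOX letters were in 5 of the 23 against 15.96%. The TATA letters were in 6 of the 23 (26.1%) against 13.1% of all windows. The GATA letters were in 3 against 10.05% and the Krüppel-like factor letters in 2 against 6.05%. Plvap held the ETS letters at 98 and 81 bases before the start, followed by the TATA letters at 60. Gja5 held the ETS letters at 95 bases and the TATA letters on the other strand at 178. Edn1 held a GATA match at 214 and the TATA letters at 110, and the Kdr window held none of the 6. A match was taken at any distance from the start and on either strand. It describes the letters of the window and neither binding nor a working TATA box.

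Among receptors for VEGF, the 2 that bind VEGF-A rose and the receptor for VEGF-C was not shown to change. Flt1, which encodes a VEGF-A receptor that also acts as a decoy, stood at 6.08, 7.28, 6.18, 8.53 and 8.07 FPKM in wild type and at 10.6, 10.3, 10.5, 10.1 and 10.9 FPKM in the mutants. The mutant libraries were close together and above all wild-type libraries. The log2 fold change of Flt1 was 0.52 (SE 0.09, limma adjusted p = 0.00232). Flt4, the receptor for VEGF-C in lymphatic and some blood capillaries, stood at 1.86, 2.12, 2.10, 2.09 and 2.58 FPKM in wild type and at 2.15, 2.06, 2.22, 2.12 and 2.21 FPKM in the mutants. The mutant values lay inside the wild-type range, and the log2 fold change was 0.0055 (95% interval -0.17 to 0.18, limma adjusted p = 0.969). The log2 ratio of Kdr to Flt4 was higher in the mutants by 0.65 and that of Flt1 to Flt4 by 0.51 (exact p = 0.00794 and adjusted p = 0.0222 for each). That of Kdr to Flt1 differed by 0.14 (exact p = 0.0397, adjusted p = 0.0556).

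Of the Tie system, Tie1 and Ptprb rose and Tek did not pass. Tie1, the partner receptor of Tie2, stood at 14.2, 11.2, 14.9, 14.8 and 15.2 FPKM in wild type and at 18.4, 17.9, 18.2, 18.4 and 17.4 FPKM in the mutants. No library of one group fell within the other, and wild-type replicate 2 stood apart below. The log2 fold change of Tie1 was 0.36 (SE 0.08, limma adjusted p = 0.00671). Ptprb, whose product is the phosphatase of Tie2 and VE-cadherin, went from 4.74 ± 0.320 to 5.68 ± 0.428 FPKM. Its log2 fold change was 0.24 (limma adjusted p = 0.0254), and the adjusted p lay above 0.05 without wild-type replicate 2 or mutant replicates 1, 3 or 5, at most 0.0632. Tek, the gene of Tie2 and the receptor for angiopoietins, stood at 9.25 ± 1.22 and 9.86 ± 0.433 FPKM (95% interval of the log2 fold change -0.09 to 0.28, limma adjusted p = 0.421). The log2 ratio of Tie1 to Tek differed by 0.26 (exact p = 0.0556, adjusted p = 0.0707).

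The 3 Notch and ephrin genes were all called higher, as were 14.6% of all genes, and Notch4 only at the threshold. Dll4, the Notch ligand of arterial and sprouting endothelium, stood at 1.57, 1.16, 1.84, 1.64 and 2.48 FPKM in wild type and at 3.02, 3.15, 3.06, 2.38 and 2.96 FPKM in the mutants. Mutant replicate 4 fell just under wild-type replicate 5, and the other mutant libraries were above all wild-type libraries. The log2 fold change of Dll4 was 0.63 (SE 0.14, limma adjusted p = 0.00785). Efnb2, which encodes the arterial ligand ephrin-B2 and is also made by tubule cells, went from 8.35 ± 1.67 to 12.3 ± 1.39 FPKM (log2 fold change 0.54, limma adjusted p = 0.00893), with groups that overlapped. Notch4, an endothelial Notch receptor, went from 3.02 ± 0.280 to 3.56 ± 0.134 FPKM (log2 fold change 0.21, limma adjusted p = 0.0498). This is at the threshold, and the call was lost without most single libraries (adjusted p 0.0469 to 0.108). Notch4 also overlaps the complement gene C4a on the other strand. C4a fell from 22.4 ± 6.90 to 5.76 ± 2.96 FPKM, and the sources used here do not say whether the counting used strand, so the value of Notch4 is uncertain.

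Transcription factors went different ways within families. Klf2 and Klf4 encode Krüppel-like factors that laminar flow induces in endothelium. Klf2 stood at 23.1, 22.4, 31.6, 23.0 and 28.3 FPKM in wild type and at 38.1, 42.3, 38.6, 42.3 and 27.7 FPKM in the mutants. Mutant replicate 5 lay inside the wild-type range and the other mutant libraries above it. The log2 fold change of Klf2 was 0.55 (SE 0.13, limma adjusted p = 0.0107), and 0.44 (adjusted p = 0.0581) without the 2 lowest-numbered wild-type libraries. Klf4, which podocytes and tubule cells can express too, stood at 5.46, 7.59, 7.87, 6.31 and 6.39 FPKM in wild type and at 5.23, 5.03, 6.10, 4.34 and 4.14 FPKM in the mutants. Klf4 fell, although mutant replicate 3 was above wild-type replicate 1. Its log2 fold change was -0.40 (SE 0.12, limma adjusted p = 0.0260), and the call was lost without wild-type replicate 2 or 3 or mutant replicate 4 or 5 (adjusted p at most 0.0635). The log2 ratio of Klf2 to Klf4 was higher in the mutants by 0.95 (SE 0.15, exact p = 0.00794, adjusted p = 0.0222), with no overlap.

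Of the 3 SoxF genes, which encode related factors of vascular development, only Sox17 passed. Sox18 stood at 6.03, 7.92, 5.41, 7.07 and 9.996 FPKM in wild type and at 6.30, 4.43, 5.88, 4.57 and 9.52 FPKM in the mutants. The spread was wide in both groups, with wild-type replicate 5 and mutant replicate 5 the highest of their own groups. The log2 fold change of Sox18 was -0.25 (95% interval -0.70 to 0.20, limma adjusted p = 0.386). Sox7 was low, at 0.772 ± 0.202 and 0.813 ± 0.181 FPKM. The log2 ratio of Sox17 to Sox18 was higher in the mutants by 0.71 (SE 0.24, exact p = 0.0317, adjusted p = 0.0494) and that of Sox7 to Sox17 was lower, at -0.41 (exact p = 0.0159, adjusted p = 0.0317). The ETS factor genes Erg and Fli1, which maintain endothelial identity, stood at 3.99 ± 0.467 against 3.77 ± 0.416 FPKM and at 6.22 ± 1.17 against 6.33 ± 0.516 FPKM. Neither passed (95% intervals of the log2 fold change -0.27 to 0.13 and -0.21 to 0.29).

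Junction and surface genes rose in part, with 3 of 7 tested called higher and 0 lower, beside 14.6% and 14.0% of all genes. Gja5 is one of them. Emcn, which encodes the anti-adhesive sialomucin endomucin, stood at 32.3, 37.3, 34.4, 38.0 and 36.8 FPKM in wild type and at 43.2, 47.2, 43.4, 46.0 and 40.0 FPKM in the mutants. The groups were apart, and the log2 fold change was 0.30 (SE 0.06, limma adjusted p = 0.00530). Esam, a tight junction adhesion molecule, went from 10.1 ± 0.926 to 13.1 ± 1.55 FPKM (log2 fold change 0.35, limma adjusted p = 0.0141). Without the 2 lowest-numbered wild-type libraries its adjusted p was 0.0702. The arterial connexin 37 gene Gja4 stood at 2.83 ± 0.265 and 3.35 ± 0.518 FPKM and did not pass (limma adjusted p = 0.143). Gja5 rose more than Gja4: their log2 ratio was higher in the mutants by 0.65 (SE 0.16, exact p = 0.00794, adjusted p = 0.0222). Icam2, a leukocyte adhesion ligand, stood at 8.66 ± 1.80 and 9.68 ± 0.625 FPKM (limma adjusted p = 0.278, and 0.0163 without wild-type replicate 5). Cd34, a sialomucin shared with stem and stromal cells, stood at 10.7 ± 2.02 and 9.78 ± 0.443 FPKM (limma adjusted p = 0.491). Cldn5, the gene of an endothelial tight junction claudin, is listed at 0 in all 10 libraries and was not tested.

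Vasoactive genes held both large rises and the largest fall. S1pr1, a receptor for the barrier-tightening lipid sphingosine 1-phosphate, stood at 3.88, 3.89, 4.42, 4.44 and 4.80 FPKM in wild type and at 6.84, 8.09, 8.83, 8.54 and 6.22 FPKM in the mutants. The groups were well apart, with a log2 fold change of 0.77 (SE 0.10, limma adjusted p = 0.000629). Nos3, the endothelial nitric oxide synthase gene, stood at 1.36, 1.57, 1.46, 1.47 and 1.47 FPKM in wild type and at 1.90, 1.96, 2.29, 1.96 and 2.19 FPKM in the mutants. All mutant values were higher, and the log2 fold change was 0.38 (SE 0.08, limma adjusted p = 0.00489). Nostrin, whose product moves that enzyme away from the membrane, rose from 8.64 ± 1.45 to 11.9 ± 1.35 FPKM (log2 fold change 0.44, limma adjusted p = 0.0138, and 0.0594 without the 2 lowest-numbered wild-type libraries).

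The genes of endothelin-1 and of the endothelin B receptor went opposite ways. Edn1 (chromosome 17, 22137324 to 22143324, minus strand) encodes the vasoconstrictor endothelin-1, which collecting duct cells make besides endothelium. Edn1 stood at 1.56, 2.17, 2.73, 1.45 and 2.46 FPKM in wild type and at 0.812, 1.36, 0.818, 1.05 and 0.994 FPKM in the mutants. Every mutant library was below every wild-type library, and mutant replicate 2 came closest. Its log2 fold change was -0.76 (SE 0.16, limma adjusted p = 0.00621), from 22 to 69 reads per library. Ednrb, the endothelin B receptor of endothelium and collecting duct, stood at 13.1, 13.4, 15.6, 16.1 and 16.5 FPKM in wild type and at 18.8, 19.0, 22.7, 21.7 and 19.3 FPKM in the mutants. The groups did not overlap, and the log2 fold change was 0.43 (SE 0.08, limma adjusted p = 0.00351). Ednra, the endothelin A receptor gene, stood at 1.46 ± 0.444 and 1.80 ± 0.258 FPKM and did not pass (limma adjusted p = 0.236). Distal tubule and collecting duct genes moved in the same libraries, 7 of 15 higher and 3 lower, beside 14.6% and 14.0% of all genes. Their summed level was 773 to 1618 FPKM in wild type and 1260.5 to 1310.0 FPKM in the mutants. The part of these tubule genes' cells in Edn1 and Ednrb was not tested. Aplnr, the apelin receptor gene, stood at 2.29 ± 0.828 and 2.09 ± 0.146 FPKM and did not pass (limma adjusted p = 0.780), with wild-type replicate 5 at 3.73 FPKM far above the rest.

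Of the haemostasis genes, Plat rose and the others did not pass. Plat, which encodes tissue plasminogen activator and is made in the glomerulus, stood at 26.7, 29.1, 29.8, 22.0 and 25.5 FPKM in wild type and at 36.2, 38.5, 35.2, 35.8 and 39.4 FPKM in the mutants. All mutant libraries were above all wild-type libraries (log2 fold change 0.47, SE 0.08, limma adjusted p = 0.00196). Thbd, the gene of the anticoagulant receptor thrombomodulin, stood at 6.79 ± 0.925 and 8.002 ± 0.340 FPKM (limma adjusted p = 0.0593, and 0.0120 without wild-type replicate 5). Vwf, which encodes von Willebrand factor of larger vessels, stood at 3.20 ± 0.721 and 3.33 ± 0.464 FPKM (95% interval of the log2 fold change -0.23 to 0.35, limma adjusted p = 0.775). Platelets carry that protein too. Of 4 tested platelet markers none passed (limma; Pf4 had the smallest adjusted p, 0.0724, and an unadjusted p of 0.0238), and the summed level of the list was 8.37 to 11.1 FPKM in wild type and 8.01 to 9.23 FPKM in the mutants.

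The remaining genes rose in 1 case. Eng, the TGF-beta coreceptor endoglin, rose from 33.9 ± 4.17 to 42.7 ± 3.95 FPKM, a log2 fold change of 0.33 (SE 0.09, limma adjusted p = 0.0174), and its adjusted p was 0.0766 without the 2 lowest-numbered wild-type libraries. Egfl7, a secreted endothelial factor, stood at 13.4 ± 2.45 and 15.7 ± 1.64 FPKM, and Mmrn2, an endothelial matrix protein gene, at 4.09 ± 0.525 and 4.58 ± 0.302 FPKM. Robo4, a guidance receptor of quiescent vessels, was the lowest of the tested genes at 0.477 ± 0.161 and 0.579 ± 0.137 FPKM, from as few as 14 reads in a library. None of these 3 passed (limma adjusted p = 0.174, 0.202 and 0.479).

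Further endothelial genes came from lists written with earlier results of these data known. The 47 other pan-endothelial genes tested held 16 that were higher (34.04%) and 4 that were lower (8.51%), and their median log2 fold change was 0.19. The number higher was 9 without the 2 lowest-numbered wild-type libraries and 10 without wild-type replicate 2 or mutant replicate 3. The prostaglandin carrier gene Slco2a1 went from 7.43 ± 0.322 to 10.8 ± 0.438 FPKM (limma adjusted p = 0.000163) and the transcription factor gene Gata2 from 3.74 ± 0.271 to 6.19 ± 0.894 FPKM. The hypoxia-inducible factor gene Epas1 rose from 45.0 ± 3.20 to 57.4 ± 3.66 FPKM and Exoc3l2 from 11.6 ± 1.41 to 17.2 ± 1.77 FPKM. Of the list written for peritubular capillaries and vasa recta, 3 of 15 genes were higher, 5 without wild-type replicate 3, and 3 lower. These are 20% each way, beside 14.6% higher and 14.0% lower of all genes. Sema3g and the natriuretic peptide clearance receptor gene Npr3, both on that list, rose by log2 fold changes of 0.65 and 0.45. Neither is taken here as a marker of those vessels. Which cells of the cortex these Sema3g and Npr3 transcripts came from was not tested. The fatty acid carrier gene Fabp4, also found in fat cells and macrophages, fell from 8.40 ± 3.06 to 1.38 ± 0.462 FPKM.

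Of 30 ligands and coreceptors of the vessel pathways, 4 were higher and 4 lower (13.3% each way), near the 14.6% and 14.0% of all genes, so the counts show nothing about the list. Without wild-type replicate 2 or mutant replicate 1 or 3, 2 were higher. Vegfa, the ligand of Kdr and Flt1, rose from 61.3 ± 8.89 to 83.3 ± 6.71 FPKM (log2 fold change 0.45, limma adjusted p = 0.00536). Angpt1, the activating ligand of Tie2, fell from 15.6 ± 1.35 to 11.7 ± 1.56 FPKM, the chemokine gene Cxcl12 from 24.1 ± 3.80 to 14.5 ± 1.12 FPKM and Sema3c from 7.41 ± 0.503 to 5.55 ± 0.512 FPKM. Of the nitric oxide, prostacyclin and endothelin list, 5 of 21 were higher (23.8%) and 3 lower (14.3%), with the prostaglandin synthase gene Ptgs2 rising from 1.198 ± 0.0456 to 4.30 ± 0.331 FPKM. Others were the sphingosine kinase gene Sphk2 (log2 fold change 0.59) and the sphingosine 1-phosphate receptor gene S1pr3 (0.75), which were higher. Of the endothelial activation list, 3 of 20 were higher (15.0%) and 4 lower (20%), again near the shares of all genes, and 7 were lower without wild-type replicate 4. Esm1, a secreted proteoglycan gene induced by VEGF, rose from 12.2 ± 2.26 to 25.2 ± 3.98 FPKM and Ctgf from 44.0 ± 10.02 to 116 ± 52.5 FPKM, whereas the chemokine gene Ccl2 fell from 6.38 ± 0.906 to 3.41 ± 0.722 FPKM and Cd276 by 0.87 on the log2 scale. Of the flow-response list, 5 of 23 were higher (21.7%) and 6 lower (26.1%), and without any 1 of 6 of the libraries the number higher was 3. Txnip was higher by 0.89 on the log2 scale, and Ptgds, Atf3 and Junb were lower, with log2 fold changes of -1.73, -1.15 and -0.74.

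Markers of other cells moved in the same libraries, in which 14.6% of all genes tested were called higher and 14.0% lower. Of 16 podocyte genes tested, 10 were higher and 1 lower, with 0 lower when any 1 of 8 of the 10 libraries was left out, and their summed level was 210.2 to 236 FPKM in wild type and 265 to 286 FPKM in the mutants. Podxl, which endothelium shares, went from 24.6 ± 3.59 to 35.4 ± 2.53 FPKM and Npnt from 32.6 ± 5.28 to 40.3 ± 2.67 FPKM. The part of glomerular content in Ehd3, Kdr and Plat was not tested. Of 18 mesangial, smooth muscle and pericyte genes, 7 were higher, 4 without the 2 lowest-numbered wild-type libraries, and 1 lower, a number that was 0 to 3 when single libraries were left out. Of 7 lymphatic genes, 0 were higher and 1 was lower, Pdpn, which podocytes also express, and Lyve1 stood at 3.33 ± 0.576 and 3.59 ± 0.307 FPKM.

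Leukocyte markers fell in the libraries in which 20 of 38 endothelial genes rose. The shares of all genes tested were 14.6% higher and 14.0% lower. Of 16 macrophage and dendritic cell genes, 13 were lower, with a summed level of 376 to 644 FPKM in wild type and 266 to 322 FPKM in the mutants. Of 11 lymphocyte genes, 10 were lower, with 34.3 to 52.3 against 19.1 to 24.3 FPKM. Leukocytes also express Klf2, Fli1 and Icam2, and the part of these cells in the values of those genes was not tested. Of 3 red blood cell genes, 1 was higher, Slc4a1, which intercalated cells also express, and 3 were higher without mutant replicate 5. The list summed to 60.5 to 133 FPKM in wild type and 108 to 325 FPKM in the mutants. Of 14 genes of the proximal tubule, the main component of cortex, 8 were higher and 0 lower, and their sum was 11259.5 to 17257 FPKM in wild type and 16702 to 17366 FPKM in the mutants.

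**Figure D5:**
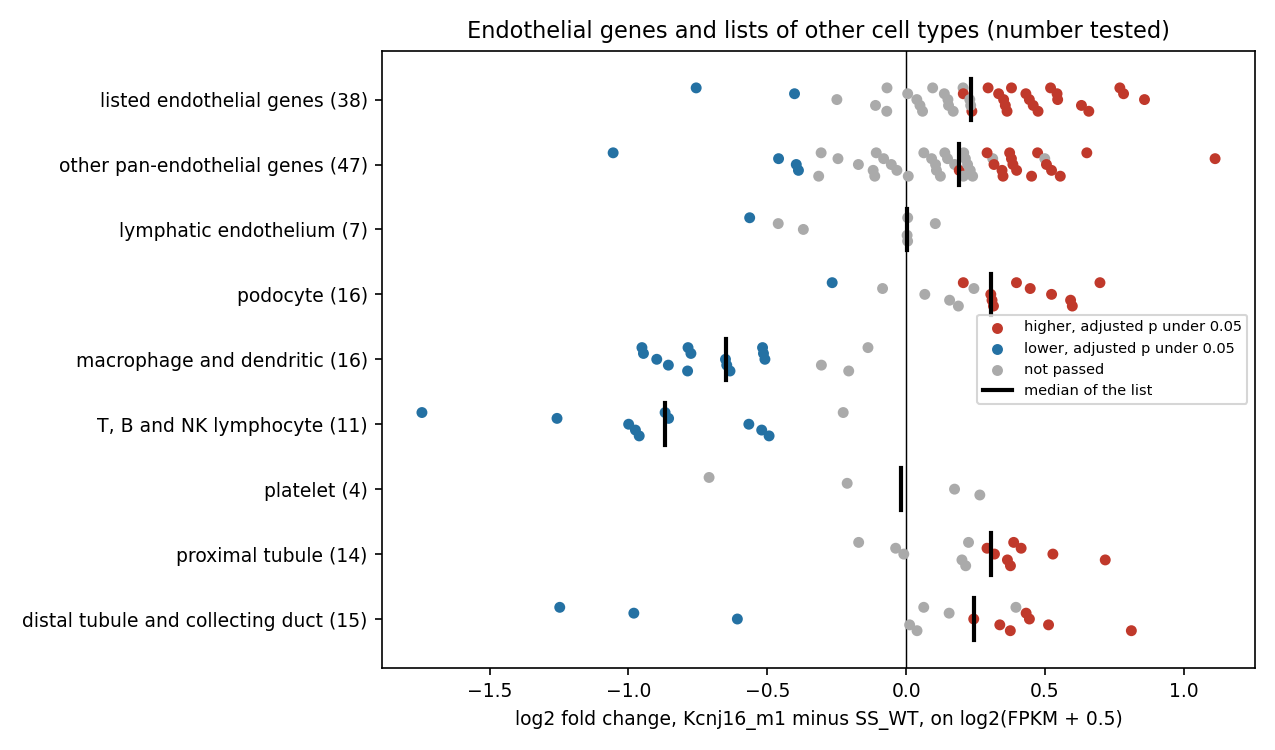
Log2 fold change (mutant minus wild type on log2(FPKM + 0.5), x axis) of each tested gene of the listed endothelial genes, the other pan-endothelial genes and 7 lists of other cell types, with the number tested in brackets. Red points were higher, blue lower, grey did not pass, and the black bar is the list's median, 0.23 for the listed endothelial genes, -0.65 for macrophage and -0.87 for lymphocyte genes.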

How the data were processed

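The deposited table holds 1 FPKM value per gene and library, made by the authors, with gene symbols, coordinates and lengths. The submitters' processing notes name featureCounts 1.5.0-p3, StringTie 1.3.3b, HISAT2 2.0.5 and fastp, without their order. They give neither genome build nor strand setting. Columns were matched to samples by the identifier in each title and grouped by genotype label. FPKM multiplied by gene length was divided by a unit fitted for each library. The fit of that unit started from the library's smallest product above 0, taken as 1 read. The division gave whole reads for 100% of values above 0 (tolerance 0.05 reads). Libraries of 1 group differed by a chi-square per gene of 6.91 to 41.8, above sampling noise.

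A gene was tested if 5 or more libraries reached 0.5 FPKM, which 13971 genes did. The model was limma 3.58.1 (R 4.3.3), run on log2(FPKM + 0.5) with genotype as its only term and a variance trend, and p-values were Benjamini-Hochberg adjusted over all genes at 0.05. Fold changes on this scale understate those of low genes. Of the 38 endothelial genes tested, 37 reached 0.5 FPKM in all 10 libraries, Robo4 being the exception. The fit relative to a pan-endothelial gene was planned with Pecam1, which is not analysed here, and run with Cdh5. Tie1 as reference was added after the data were seen. Genes and lists were chosen with earlier results of these data known. The text names all 40 genes, up to 4 called genes of each pathway list by smallest adjusted p, and some of the 3 highest genes of each cell type list. Some genes that this rule names are not reported here. C4a and Ednra were named after their values were seen. The fit was tested on simulated data. Alternatives were other pseudocounts, filters and scalings, no variance trend, limma voom on the recovered reads and left-out libraries.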

Additional observations from a re-analysis of the deposited data

Results flagged for a closer look

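Within a group of 5 libraries, a value was singled out when its gap to the nearest other library exceeded 0.71 of the group's range. Of the 76 groups of the 38 genes, 8 held such a value, where chance gives about 1 in 20. In wild-type replicate 2, Sox17 stood at 2.18 FPKM, with the other wild-type libraries at 2.57 to 2.66, and Tie1 at 11.2 FPKM, with the others at 14.2 to 15.2. In wild-type replicate 5, Aplnr stood at 3.73 FPKM (others 1.76 to 2.24) and Icam2 at 11.8 FPKM (others 7.45 to 8.66). In mutant replicate 4, Dll4 stood at 2.38 FPKM (others 2.96 to 3.15) and Nostrin at 14.2 FPKM (others 10.8 to 11.7). In mutant replicate 5, Klf2 stood at 27.7 FPKM (others 38.1 to 42.3), and in mutant replicate 3, Thbd stood at 8.59 FPKM (others 7.74 to 7.98).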

How the results depend on the processing

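The 38 endothelial genes were refitted under 19 alternatives. Of the 22 called genes, 15 were called under every one, and Eng, Esam, Klf2, Klf4, Ptprb, Nostrin and Notch4 were not called under at least 1. The number higher was 18 to 21 and the number lower 1 to 2 when single libraries were left out. Over all genes, 1510 to 2374 were then higher and 1534 to 2171 lower. Leaving out single libraries gave log2 differences relative to Cdh5 of 0.56 to 0.77 for Ehd3 (adjusted p 0.00435 to 0.0665) and 0.46 to 0.59 for Kdr (adjusted p 0.0111 to 0.0638). It also turned the sign of 5 genes that did not pass, the log2 fold change being -0.021 to 0.11 for Sox7, -0.035 to 0.061 for Flt4, -0.017 to 0.16 for Vwf, -0.032 to 0.11 for Fli1 and -0.13 to 0.092 for Aplnr. The sign of Flt4 also turned with limma voom (-0.028) and without the 2 lowest-numbered wild-type libraries (-0.053), that of Fli1 without those libraries (-0.077) and that of Aplnr with quantile normalization (0.0092). The cause was not tested. Robo4, Sox7 and Edn1 rest on few reads, which limits their precision. No paired analysis was possible because the labels give no replicate numbers.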
